A study of Mus musculus with 4 samples.

Results

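The genes described here are 10 immediate-early genes of activated lymphocytes: the nuclear receptors Nr4a1, Nr4a2 and Nr4a3, the zinc finger factors Egr1, Egr2 and Egr3 with their co-repressor Nab2, and the FOS proteins Fos, Fosb and Fosl2. They were chosen by gene symbol, and all 10 were found among the 31748 symbols of the count tables. Expression was measured by RNA-seq of ribosome-depleted total RNA in 4 libraries of mouse spleen T cells labelled CD4+, 2 labelled TEaMthfd2 KO (KO 1 and KO 2) and 2 labelled TEaWT (WT 1 and WT 2). By the labels, all 4 came from 8-week-old donors with the TEa receptor transgene, whose cells were taken by positive magnetic selection and spent 3 days with mitomycin-treated spleen antigen-presenting cells of F1 (BALB/c x C57BL/6) mice. The comparison asks what changes in T cells facing alloantigen when Mthfd2, which encodes a folate enzyme of mitochondria, is lost. The labels give neither the deleted exons nor the cell types in which the gene was deleted. They also leave unsaid if the 2 libraries of a genotype had separate donors or cultures, so a p-value here covers only the spread between libraries, and that spread may be technical.

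Some measurements go against the labels or set the libraries apart. Mthfd2 had 222 and 252 CPM (counts scaled to library depth) in KO 1 and KO 2, against 280 and 280 CPM in WT 1 and WT 2, and the difference did not pass the test (log2 fold change -0.24 ± 0.14 SE, edgeR quasi-likelihood adjusted p = 0.324). A count over the whole gene does not check the loss of some exons, so KO and WT are used here as the labels give them. The Cd8a count was between 3.10 and 4.00 times the Cd4 count in every library, and Trbv19, which the TEa receptor uses, held between 6.37% and 8.39% of Trbv counts, so the cells are not known to be TEa CD4+ T cells. Total counts were 14191401 to 14419298 in KO libraries and 14686711 to 15955863 in WT libraries. WT 1 lay apart from WT 2: the chi-square per degree of freedom between libraries was 16.1 for the KO pair and 40.3 for the WT pair.

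Immediate-early genes are transcribed within minutes of a signal, without new protein synthesis, from factors already in the cell. The libraries here were taken after 3 days of culture, so their values are not levels within minutes of a first signal. In T cells the antigen receptor acts through calcium, calcineurin and NFAT, and through the ERK kinases, serum response factor (SRF) and the ternary complex factors that bind beside it. NR4A proteins are orphan nuclear receptors, EGR proteins bind GC-rich DNA and are held back by NAB proteins, and FOS proteins pair with JUN proteins to form AP-1. In mouse T cells Egr2, Egr3 and the NR4A receptors are known to restrain activation and to take part in anergy, exhaustion and regulatory T cell programmes, while FOS with NFAT drives cytokine genes.

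The stretches before the start site of 4 of the genes are shown. Nr4a1 and Nr4a3, family members with unlike values, can be set side by side there, while Egr2 and Fos have no relative beside them. The stretches are the bases of the 250 before a RefSeq start (assembly GRCm38.p6) that lie in no GENCODE M21 exon, written 5′ to 3′. Capitals mark TGACG on either strand, the core of the cAMP response element bound by CREB proteins, and the CArG box bound by SRF.
Nr4a3 (chr4:48045055-48045152, plus strand): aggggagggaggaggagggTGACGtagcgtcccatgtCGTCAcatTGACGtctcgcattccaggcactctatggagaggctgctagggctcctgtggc
Nr4a1 (chr15:101266596-101266845, plus strand): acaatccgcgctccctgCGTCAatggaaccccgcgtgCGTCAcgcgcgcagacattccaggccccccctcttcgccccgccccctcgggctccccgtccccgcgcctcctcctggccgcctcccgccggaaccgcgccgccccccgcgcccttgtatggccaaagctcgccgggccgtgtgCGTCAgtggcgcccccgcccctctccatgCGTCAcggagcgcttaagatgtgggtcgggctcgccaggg
Egr2 (chr10:67537619-67537868, plus strand): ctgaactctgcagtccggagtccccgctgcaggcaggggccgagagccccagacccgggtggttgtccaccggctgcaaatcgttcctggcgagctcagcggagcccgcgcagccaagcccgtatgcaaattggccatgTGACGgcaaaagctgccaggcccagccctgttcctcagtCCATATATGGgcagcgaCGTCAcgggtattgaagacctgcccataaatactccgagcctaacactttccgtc
Fos (chr12:85473640-85473889, plus strand): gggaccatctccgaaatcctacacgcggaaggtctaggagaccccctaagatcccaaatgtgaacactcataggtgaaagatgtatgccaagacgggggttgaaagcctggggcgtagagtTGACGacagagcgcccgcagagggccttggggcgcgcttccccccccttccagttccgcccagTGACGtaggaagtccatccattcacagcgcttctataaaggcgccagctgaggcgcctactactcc
In the full windows of 300 bases, Nr4a1, Nr4a2 and Nr4a3 held 4 TGACG matches each. For Nr4a3, 3 of its 4 lie in the 98 bases printed. The third of the 5 listed Egr2 starts, shown here, had 2 TGACG matches and 1 CArG box, whereas the first listed start had neither. Fos had 2 TGACG matches, Fosb 1, and Nab2 and Fosl2 had 0. A TGACG was found in 20.8% and a CArG box in 1.63% of all 32851 promoter windows. The EGR site GCGNGGGCG, on either strand, was present once each in the windows of Nr4a1, Nr4a2, Fosb and Fosl2 and in 5.55% of all windows. The AP-1 site TGANTCA was in 0 of the members' windows and in 7.81% of all windows. Windows were found for 8 of the 10 genes, and Egr1 and Egr3 had none in the table. These matches are letters in a window and not measured sites.

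With all 4 libraries, Nr4a3 was the gene of the 10 that passed the test. It fell by 1.80 on the log2 scale in KO against WT libraries, while Nr4a1, its close relative, was not called. Of the 10 genes, all of which passed the filter on low counts, 1 was called lower and 0 higher at an adjusted p under 0.05 in edgeR's quasi-likelihood test over 12752 genes. Of all genes tested 1.56% were called lower and 2.39% higher. At an unadjusted p under 0.05, 1 of the 10 was lower and 3 were higher, against 12.7% of all genes lower and 12.8% higher. DESeq2 and limma-voom also called 1 lower and 0 higher. DESeq2 called 6.11% of all genes lower and 6.7% higher, and limma-voom 1.7% lower and 2.95% higher. The median log2 fold change was 0.41 over the 10 genes and -0.0026 over all genes. Both KO libraries lay below both WT libraries for 2 of the 10 genes and above them for 3, against 30.1% below and 29.8% above among all genes, and the other 5 overlapped.

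**Figure D1:**
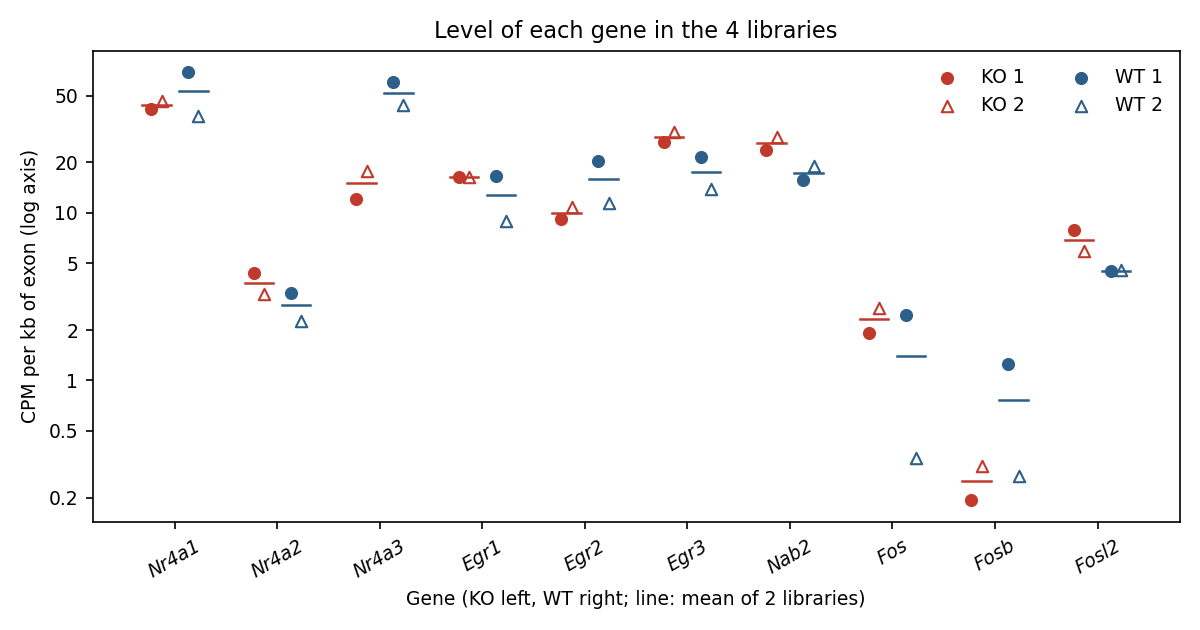
Level of each gene in CPM per kilobase of exon (log axis) in KO 1 and KO 2 (left of each pair) and WT 1 and WT 2 (right); circles are replicate 1, triangles replicate 2 and lines the mean of 2 libraries. Nr4a3 averaged 15.0 in KO and 52.2 in WT libraries, and the WT libraries were far apart for Fos (2.47 and 0.345) and Fosb (1.26 and 0.271).

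Per length of exon, the 10 genes spanned a wide range of levels. In KO libraries the mean level in CPM per kilobase was highest for Nr4a1 (44.0), followed by Egr3 (28.4), Nab2 (26.2), Egr1 (16.4), Nr4a3 (15.0), Egr2 (10.0), Fosl2 (6.91), Nr4a2 (3.83), Fos (2.32) and Fosb (0.251). In WT libraries Nr4a1 (53.5) and Nr4a3 (52.2) headed the order, followed by Egr3 (17.6), Nab2 (17.4), Egr2 (15.98), Egr1 (12.7), Fosl2 (4.53), Nr4a2 (2.80), Fos (1.41) and Fosb (0.766). Nr4a3 thus ranked below Egr3, Nab2 and Egr1 by mean in KO libraries and above them in WT libraries. In both groups some neighbours overlapped between libraries: Nr4a3 with Egr1 and Egr3 with Nab2 in KO, and in WT Nr4a1 with Nr4a3, Fos with Nr4a2 and with Fosb, and Egr1, Egr2, Nab2 and Egr3 among themselves. Averaged over the 4 libraries, Nr4a1 stood at percentile 91.3 and Nr4a3 at 86.2 of the level per kilobase of 12430 tested genes with a known exon length, whereas Fos stood at 22.9 and Fosb at 9.29.

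Among the nuclear receptors, Nr4a3 (NOR1; ENSMUSG00000028341.9, plus strand of chromosome 4, 48045153 to 48086447, GRCm38) had 1031 and 1490 counts in KO 1 and KO 2, against 5947 and 3879 in WT 1 and WT 2. Scaled by depth this was 72.9 and 107 CPM in KO libraries, against 363 and 262 CPM in WT libraries. Both KO libraries lay well below both WT libraries, and the gap was larger than the spread within either pair. The mean was 89.9 ± 24.0 CPM in KO and 313 ± 71.5 CPM in WT libraries (SD, n = 2 each), a log2 fold change of -1.80 ± 0.25 SE (edgeR quasi-likelihood, Benjamini-Hochberg adjusted p = 0.0326). Leaving out WT 1 it was -1.54, and leaving out WT 2 it was -2.01. With 1 KO library left the call was lost (adjusted p = 0.322 without KO 1 and 0.158 without KO 2), and there 0 of all genes were called, although 748 were higher and 818 lower without KO 1, and 1044 higher and 1053 lower without KO 2, at an unadjusted p under 0.05.

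Nr4a1 (Nur77; ENSMUSG00000023034.7, plus strand of chromosome 15, 101254269 to 101274795), widely used in mice as a reporter of antigen receptor signalling, had 147 and 162 CPM in KO 1 and KO 2, against 242 and 133 CPM in WT 1 and WT 2. The KO values lay between the WT values, so the groups overlapped. The log2 fold change was -0.28 ± 0.28 SE (adjusted p = 0.561), and its sign turned to 0.22 without WT 1 and stood at -0.65 without WT 2 (adjusted p = 0.505 and 0.0294). Nr4a2 (Nurr1) had 17.7 and 13.3 CPM in KO, against 13.6 and 9.19 CPM in WT libraries, with KO 2 just under WT 1. Its log2 fold change was 0.45 ± 0.30 SE (adjusted p = 0.381), with 0.76 without WT 1, 0.20 without WT 2, 0.23 without KO 1 and 0.64 without KO 2.

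**Figure D2:**
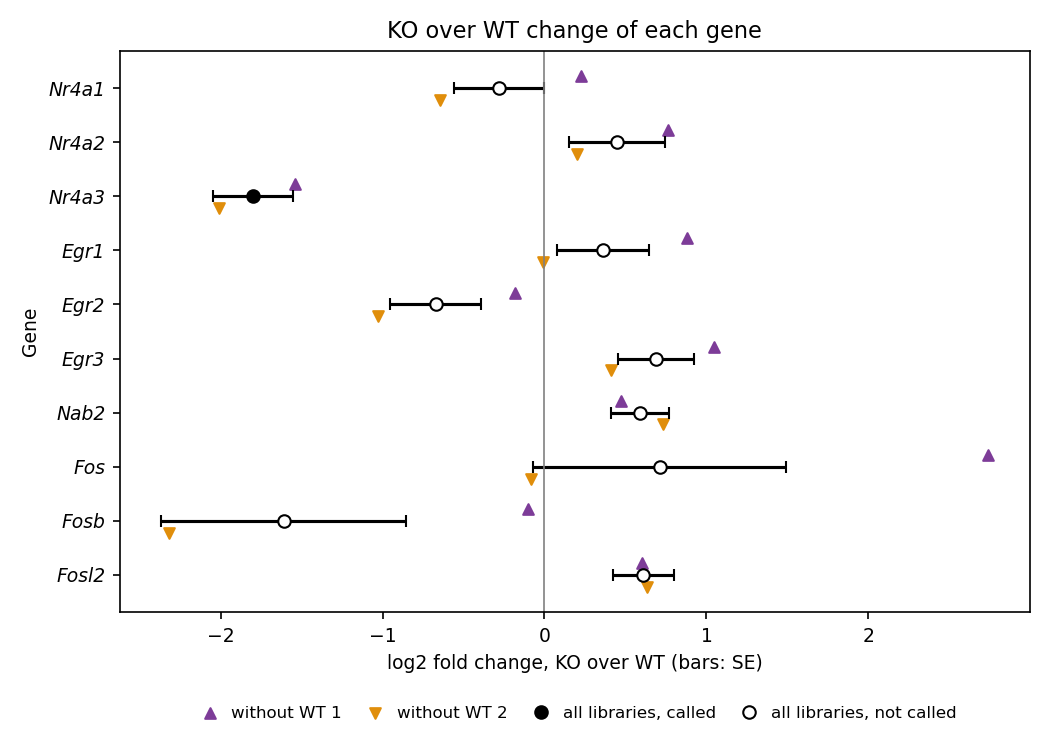
Log2 fold change of KO over WT for each gene with all 4 libraries (circles with SE bars; filled where called) and with WT 1 or WT 2 left out (triangles). Nr4a3 is the filled point at -1.80, and the triangles of Fos lie farthest apart, at 2.74 without WT 1 and -0.09 without WT 2.

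The make-up of the NR4A family is given here as shares within a library. Of the summed level per kilobase of the 3 receptors, Nr4a3 held 20.9% and 26.5% in KO 1 and KO 2, against 45.6% and 52.2% in WT 1 and WT 2. Nr4a1 held 71.6% and 68.6% in KO, against 51.9% and 45.1% in WT libraries, and Nr4a2 held 7.50% and 4.88% in KO, against 2.51% and 2.70% in WT libraries. No share overlapped between the groups, but the 3 shares of a library add up to the whole, so they are not 3 separate results. The ratio of Nr4a3 to Nr4a1 per kilobase was 0.292 and 0.386 in KO, against 0.878 and 1.16 in WT libraries, with both KO values below both WT values. Such a ratio is taken within a library and does not depend on its scaling. The summed level of the family was 58.3 and 67.3 CPM per kilobase in KO, against 133 and 83.9 in WT libraries. An exact two-sided permutation test of 2 against 2 libraries cannot give a p below 0.333, so shares and ratios carry no test here.

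In the EGR family the members leaned in opposite directions, and none passed the test. Egr2 (ENSMUSG00000037868.15, plus strand of chromosome 10, 67535475 to 67542188), which in mouse T cells is linked to anergy, had 31.3 and 36.8 CPM in KO 1 and KO 2, against 69.7 and 38.9 CPM in WT 1 and WT 2. Both KO values lay below both WT values, but KO 2 and WT 2 were close. The log2 fold change was -0.67 ± 0.28 SE (adjusted p = 0.197). It was -0.18 without WT 1 (adjusted p = 0.665) and -1.03 without WT 2 (adjusted p = 0.00787).

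Egr3, a partner of Egr2 in restraining T cell activation, had 117 and 134 CPM in KO, against 94.5 and 60.9 CPM in WT libraries, with both KO above both WT (0.69 ± 0.23 SE, adjusted p = 0.133). Egr1, the founding member of the family and a target of ERK and SRF, had 73.5 and 73.2 CPM in KO, against 74.1 and 40.02 CPM in WT libraries. The KO libraries were alike and close to WT 1, so the groups overlapped (0.36 ± 0.28 SE, adjusted p = 0.461). Without WT 1, Egr3 (1.04, adjusted p = 0.0253) and Egr1 (0.88, adjusted p = 0.0391) were called higher, in a fit that called 2.46% of all genes higher and 1.05% lower. Without WT 2, in a fit that called 11.2% of all genes higher and 8.63% lower, neither was, and Egr1 stood at -0.01.

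Taken within a library, Egr2 was low against its relatives in both KO libraries. The ratio of Egr2 to Egr3 per kilobase was 0.349 and 0.357 in KO, against 0.956 and 0.827 in WT libraries. The ratio of Egr2 to Egr1 was 0.562 and 0.664 in KO, against 1.24 and 1.28 in WT libraries. In both ratios the libraries of a group were close together and the groups far apart, although all 3 genes were higher in WT 1 than in WT 2. Egr2 held 17.7% and 18.8% of the summed EGR level in KO, against 35.1% and 33.5% in WT libraries. Egr3 held 50.8% and 52.8% in KO, against 36.7% and 40.4% in WT libraries, and Egr1 held 31.5% and 28.4% in KO, against 28.3% and 26.1% in WT libraries. These ratios were chosen after the counts had been seen.

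**Figure D3:**
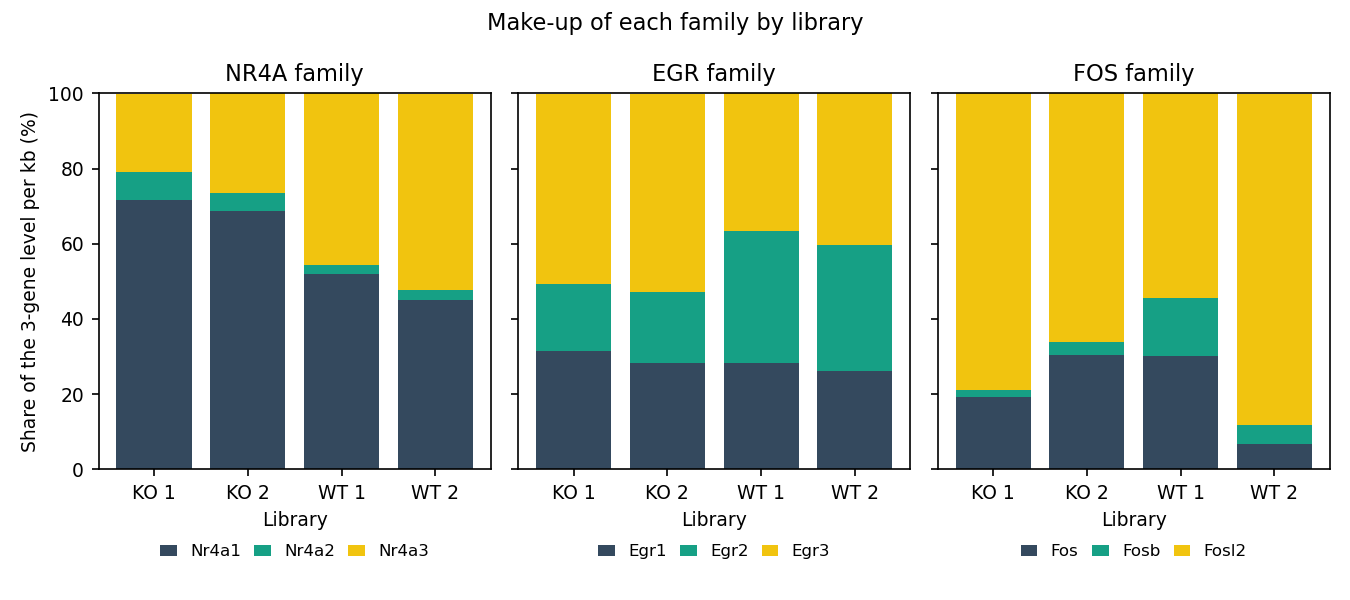
Share of each member in the summed level per kilobase of its 3-gene family (percent), by library, with KO 1 and KO 2 left of WT 1 and WT 2. Nr4a3 took 20.9% and 26.5% in KO against 45.6% and 52.2% in WT libraries, Egr2 took 17.7% and 18.8% in KO against 35.1% and 33.5% in WT libraries, and the FOS shares of WT 1 and WT 2 differed from each other.

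Nab2, the co-repressor that binds EGR proteins and is itself known as an EGR target, had 70.2 and 83.7 CPM in KO, against 46.4 and 55.8 CPM in WT libraries. Both KO libraries lay above both WT libraries, in the direction of Egr3 and not of Egr2. The log2 fold change was 0.59 ± 0.18 SE (adjusted p = 0.106), and it was called only without WT 2 (0.73, adjusted p = 0.0299) among the alternatives run. Of the 2941 exon bases of Nab2, 1050 (35.7%) also lie in exons of the antisense gene Gm16229, 151 in exons of Nemp1 and 40 in exons of Stat6, all on the opposite strand. Of these 3, only Stat6 is a symbol of the tables used here. The count of Nab2 is therefore uncertain where strand was not used. The related co-repressor Nab1 had 110 and 127 CPM in KO, against 78.4 and 109 CPM in WT libraries (0.34 ± 0.20 SE, adjusted p = 0.331). Egr4 had 0 and 11 counts in KO and 10 and 8 counts in WT libraries and was not tested.

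The FOS family was scarce apart from Fosl2. Fos, the classic AP-1 subunit (ENSMUSG00000021250.13, plus strand of chromosome 12, 85473890 to 85477273), had 64 and 89 counts in KO 1 and KO 2, against 95 and 12 counts in WT 1 and WT 2. Scaled by depth this was 4.52 and 6.38 CPM in KO, against 5.80 and 0.811 CPM in WT libraries. WT 1 lay between the KO libraries and WT 2 far below them, so the groups overlapped, and the log2 ratio of WT 1 to WT 2 was 2.84, larger in size than in 98.9% of tested genes. The KO over WT log2 fold change was 0.71 ± 0.78 SE (adjusted p = 0.607). It was 2.74 without WT 1 (adjusted p = 0.0502) and -0.09 without WT 2 (adjusted p = 0.911), so its sign depended on which WT library was kept.

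Fosb had 17 and 27 counts in KO, against 129 and 25 counts in WT libraries, where WT 1 alone stood out. Its log2 fold change was -1.61 ± 0.76 SE (adjusted p = 0.236), -0.10 without WT 1 (adjusted p = 0.952) and -2.32 without WT 2 (adjusted p = 0.0156). Fosl2, which encodes FRA2, a FOS protein without the strong activation domain of Fos, had 76.5 and 57.3 CPM in KO, against 43.3 and 44.3 CPM in WT libraries. Both KO libraries lay above both WT libraries, and the WT pair was close together. The log2 fold change was 0.61 ± 0.19 SE (adjusted p = 0.109), with 0.60 without WT 1, 0.63 without WT 2, 0.39 without KO 1 and 0.80 without KO 2. Fosl2 held 78.9% and 66.2% of the summed FOS level per kilobase in KO, against 54.5% and 88.2% in WT libraries, so these shares overlapped.

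Fosl1 (FRA1), the FOS family gene outside the 10, fell. It had 5.16 and 7.17 CPM in KO, against 27.4 and 17.4 CPM in WT libraries (-1.86 ± 0.32 SE, adjusted p = 0.0400), and the call was lost without WT 1 (-1.49, adjusted p = 0.0578). Fosl1 and Nr4a3 thus passed the test in the same direction, while Fosl2, the other FRA gene, leaned the other way without passing.

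The WT libraries differed in most of these genes. WT 1 was above WT 2 for 8 of the 10, all except Nab2 and Fosl2. The size of this log2 ratio was 0.27 in the median tested gene, and was 0.89 for Egr1, 0.87 for Nr4a1, 0.84 for Egr2 and 0.63 for Egr3. The KO pair lay closer for these 4 genes, with log2 ratios of KO 1 to KO 2 of 0.0067, -0.15, -0.23 and -0.20 in the same order. The size of the KO ratio was 0.21 in the median tested gene. For Nr4a3 and Fosl2 the KO pair lay farther apart (-0.55 and 0.42) than the WT pair (0.47 and -0.03). For Nr4a2, Nab2, Fos and Fosb it lay closer. The genes most alike to 1 member of each family in their level over the 4 libraries, by Euclidean distance of centred log2 CPM among 12030 genes, were Smad3, Gvin2 and Dstyk for Nr4a1 (distances 0.052 to 0.089). Spin4, Pfkfb4 and Anxa9 were the nearest to Egr1 (0.10 to 0.14) and Pgam2, Col7a1 and Cmpk2 to Fos (0.50 to 0.59). With 4 libraries this likeness is a description only.

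Among other immediate-early genes more fell than rose. Of 29 such genes tested, 6 fell, 1 rose and 22 were not called, with a median log2 fold change of -0.42, which was -0.17 without WT 1. Over all genes this test called 1.56% lower and 2.39% higher, the background for this list and those that follow. Myc, the growth-promoting factor, had 164 and 215 CPM in KO, against 635 and 427 CPM in WT libraries (-1.49 ± 0.24 SE, adjusted p = 0.0397). Nfkbia, an inhibitor of NF-kappaB, fell by 1.36 on the log2 scale, Nfkbid by 1.48, Gadd45b by 1.69, the repressor Atf3 by 1.16 and Csrnp1 by 0.88. The antiproliferative gene Btg2 rose, with 128 and 94.9 CPM in KO, against 46.3 and 38.0 CPM in WT libraries (1.40 ± 0.21 SE, adjusted p = 0.0357). Dusp2, a phosphatase of ERK, had 151 and 185 CPM in KO, against 221 and 167 CPM in WT libraries and was not called (adjusted p = 0.534). With upper quartile factors, which called 0.957% of all genes lower, 3 of the 29 fell, and Csrnp1, Gadd45b and Nfkbia were lost with adjusted p of 0.0527, 0.0527 and 0.0530. Without WT 1 the log2 fold change of Csrnp1 was -0.72, and without WT 2 the median of the 29 genes was -0.57.

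Outside the FOS family 8 AP-1 genes were listed, labelled AP-1 partners below: the JUN and BATF genes, Atf3 and Jdp2. Of these, 1 fell (Atf3, also in the list above) and 7 were not called. Jun had 43.0 and 29.7 CPM in KO, against 132 and 73.7 CPM in WT libraries, with both KO below both WT, and missed the threshold (-1.50 ± 0.32 SE, adjusted p = 0.0510). DESeq2 called it lower (adjusted p = 0.000206), and over the alternatives run the adjusted p spanned 0.000206 to 0.322. Junb had 358 and 275 CPM in KO, against 272 and 241 CPM in WT libraries (0.30 ± 0.18 SE, adjusted p = 0.322).

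Few genes upstream of these factors passed the test. Of 12 genes of SRF, the ternary complex factors, their co-activators and CREB, 1 rose and 11 were not called. The one that rose was the ternary complex factor Elk3, with 60.0 and 52.9 CPM in KO, against 27.2 and 28.7 CPM in WT libraries (1.02 ± 0.16 SE, adjusted p = 0.0397). Srf itself had 102 and 131 CPM in KO, against 119 and 144 CPM in WT libraries (-0.18 ± 0.19 SE, adjusted p = 0.596). Of 22 genes leading from the T cell receptor to ERK and calcineurin, edgeR called 0, while an unadjusted p under 0.05 was met by 5 genes that were higher and 1 that was lower (12.8% and 12.7% of all genes), DESeq2 called 4 higher and limma-voom 1 higher. Their median log2 fold change was 0.25, with 16 of the 22 above 0.

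**Figure D4:**
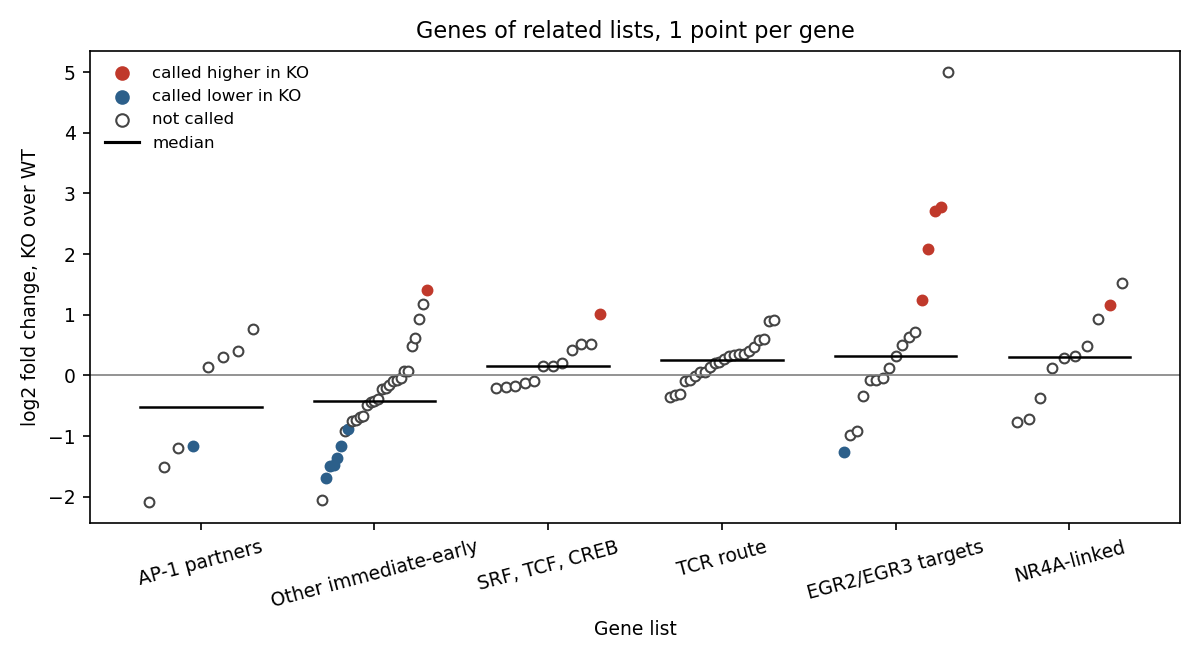
Log2 fold change of KO over WT for each tested gene of 6 related lists, 1 point per gene, filled where called higher or lower, with the list median as a line. The medians were -0.52 for AP-1 partners, -0.42 for other immediate-early genes, 0.16 for SRF, ternary complex factor (TCF) and CREB genes, 0.25 for the T cell receptor (TCR) route, 0.32 for EGR2 and EGR3 targets and 0.30 for NR4A-linked genes, all with 4 libraries; the open point near 5 is Rnf128, with 21 and 15 counts in KO and 1 and 0 counts in WT libraries.

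Single libraries moved several of these medians: for AP-1 partners it was -0.15 without WT 2, and for SRF, TCF and CREB genes it was 0.05 without WT 1 and 0.10 without KO 2. For the T cell receptor route it was 0.15 without KO 2. For EGR2 and EGR3 targets it was 0.17 without WT 2, and for NR4A-linked genes 0.12 without KO 1 and 0.11 without KO 2.

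Known targets of EGR2 and EGR3 in mouse T cells did not follow one direction. Of 17, 4 rose, 1 fell and 12 were not called. Dgka, a diacylglycerol kinase that dampens receptor signalling, had 374 and 377 CPM in KO, against 140 and 176 CPM in WT libraries (1.25 ± 0.16 SE, adjusted p = 0.0292). Nrn1, which encodes neuritin, rose by 2.71 ± 0.38 SE, Nrgn, which encodes neurogranin, by 2.77 ± 0.47 SE, and Ndrg1, also a known hypoxia-responsive gene, by 2.07 ± 0.33 SE. Socs1, an inhibitor of cytokine signalling, fell, with 95.8 and 87.7 CPM in KO, against 242 and 200 CPM in WT libraries (-1.27 ± 0.16 SE, adjusted p = 0.0292). The median log2 fold change of the 17 was 0.32 with all 4 libraries and 0.17 without WT 2.

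Of 10 genes linked to NR4A factors in exhausted and regulatory T cells, 1 rose and 9 were not called. Pdcd1, which encodes the checkpoint receptor PD-1, had 99.2 and 86.4 CPM in KO, against 33.8 and 49.4 CPM in WT libraries (1.16 ± 0.22 SE, adjusted p = 0.0441). This call was lost with upper quartile factors (adjusted p = 0.0527) and with library size only (adjusted p = 0.0515). Nr4a3 and Pdcd1 were thus called in opposite directions.

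Several markers of other spleen cells differed between KO and WT libraries. The cultures also held the spleen antigen-presenting cells of F1 mice. Whether these markers came from those added cells was not tested. Of 7 dendritic cell markers, 4 were abundant enough to test and 0 were called. Zbtb46 (-1.69) and Flt3 (-1.55) stood below 0, and Xcr1 (0.78) and Itgax (0.45) above. The list summed to 8.82 to 15.2 CPM in KO and 18.3 to 39.6 CPM in WT libraries. Of 12 B cell markers, 5 were called lower, and none was at 0 in all libraries. Their summed level was 477 to 535 CPM in KO and 914 to 1499 CPM in WT libraries. Of 10 MHC class II genes, 7 were called lower, with sums of 1148 to 1317 CPM in KO and 2485.5 to 4167 CPM in WT libraries. Of 15 myeloid markers, 6 were abundant enough to test, all 6 stood below 0, and 3 were called lower (Spi1, Cybb and Mpeg1). The list summed to 47.8 to 63.1 CPM in KO and 154 to 325 CPM in WT libraries. Much of the WT sum was Mpeg1 (154 and 61.0 CPM in WT 1 and WT 2) and Cybb (120 and 65.2 CPM). Cd68 stood at -0.24 (adjusted p = 0.692). Csf1r had 6 and 0 counts in KO and 6 and 2 in WT libraries, and Fcgr1 and C1qa were at 0 throughout. Whether the fall of the 3 called genes came from myeloid cells was not tested. Red blood cell markers summed to 3.08 to 6.86 CPM in KO and 32.3 to 127 CPM in WT libraries, and the 6 plasma cell markers to 47.2 to 62.4 CPM in KO and 72.5 to 142 CPM in WT libraries. Of the plasma cell markers, Jchain (-3.60) and Mzb1 (-1.36) were called lower and Derl3 stood at -0.80. Prdm1 (0.36) and Sdc1 (0.07) did not fall. The 5 NK cell markers summed to 175 to 210.0 CPM in KO and 102 to 109 CPM in WT libraries, of which Klrd1 and Klrk1 were called higher and carried most of the difference. Scaled by upper quartile factors, or by total count alone, neither was called. Ncr1, a defining NK cell gene, had 0.778 and 0.287 CPM in KO, against 2.75 and 2.70 CPM in WT libraries (-2.34 ± 0.66 SE, adjusted p = 0.0896), and Eomes stood at -0.24. The 10 pan T cell markers summed to 3357 to 3502 CPM in KO and 2237 to 2679 CPM in WT libraries, and 3 were called higher (Cd3g, Cd3d and Cd3e). Of the other 7, Cd6 had both KO libraries below both WT libraries (-0.52, adjusted p = 0.118), and Cd5 and Cd2 stood at -0.09 and 0.15. With upper quartile factors 2 B cell and 3 MHC class II genes were called lower, and with DESeq2 9 and 8. The median log2 fold change of the B cell genes was -1.33 with all 4 libraries, -0.81 without WT 1 and -1.585 without WT 2. It was -1.44 without KO 1 and -1.22 without KO 2. Of 9 heat shock and handling genes, 1 was called lower (Hsph1, -1.12 ± 0.21 SE, adjusted p = 0.0421), and this call was lost without WT 1 (adjusted p = 0.0502). B cells and myeloid cells also express NR4A, EGR and FOS genes, and in bulk RNA fewer cells of a type and less RNA per cell cannot be told apart. The part of these cells in the values of Nr4a3 and the other members was not tested.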

How the data were processed

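Read counts per gene symbol were deposited by the authors as 1 table per library, not normalized. Per the submitters' processing notes, Subread 2.0.1 with featureCounts, the mm10 build, R 4.0.4 and DESeq2 1.30.1 were used; the aligner, the annotation, and strand or multi-mapping settings: not given in the sources used here. The unused per-sample columns numbered 0. The 10 genes and all lists were chosen with earlier results of these data known, so no test was made over a list.

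The counts were tested with edgeR 4.0.16 (R 4.3.3): filterByExpr (minimum count 10, minimum total 15) kept 12752 genes, TMM factors scaled the libraries, and KO was compared with WT by the quasi-likelihood test over all 4 libraries with no covariate, after the script was tested on simulated data. P-values were adjusted by Benjamini-Hochberg over all genes, with 0.05 as the threshold for a call. DESeq2 1.42.0, limma-voom (limma 3.58.1), other scalings and each library left out were the alternatives. CPM used TMM-adjusted totals, and levels per kilobase the union of GENCODE M21 exons (GRCm38, the assembly called mm10). Coordinates are counted from 1. All 10 members are named. From other lists, the called genes with the lowest p-values (at most 6 a list) and a few fixed genes are named, and for 1 member per family the 3 genes nearest in pattern. Of 194 listed symbols, 191 matched directly, 2 through RefSeq synonyms and 1 not at all. Counts limit precision most for Fos, Fosb and Egr4.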

Additional observations from a re-analysis of the deposited data

How the results depend on the processing

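With all 4 libraries, 1 of the 10 genes was called lower (Nr4a3) and 0 higher under each scaling, without a filter, with DESeq2, with limma-voom and with the replicate number as a block. Leaving out 1 library gave a median log2 fold change of the 10 genes between -0.048 and 0.54. Over these fits the log2 fold change ranged over -2.10 to -1.54 for Nr4a3, -1.03 to -0.18 for Egr2, 0.41 to 1.04 for Egr3, 0.46 to 0.73 for Nab2, -2.32 to -0.10 for Fosb, 0.20 to 0.76 for Nr4a2 and 0.39 to 0.80 for Fosl2. Nr4a1 ranged over -0.65 to 0.22, turning without WT 1, Egr1 over -0.0095 to 0.88 and Fos over -0.086 to 2.74, both turning without WT 2. Fits without a KO library take the spread from WT 1 and WT 2, and those without a WT library from KO 1 and KO 2; the remaining lone library is assumed to vary alike.

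Over all genes 305 were called higher and 199 lower. The counts were 122 lower with upper quartile factors, 737 higher and 682 lower without a filter, 854 and 779 with DESeq2, and 0 to 1423 higher and 0 to 1101 lower with 1 library left out. Whether same-numbered libraries were paired is not known. Deviations of same-numbered libraries correlated at 0.040, which cannot decide this, and the replicate block gave 488 higher and 401 lower. The cause of these differences was not tested. Shallow counts limit Fos, with 12 in WT 2, and Fosb, with 17 in KO 1.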
